A study of Homo sapiens with 8 samples.

Results

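Epithelial identity genes, 10 in all, were examined in MDA-MB-231, an established line from a human breast carcinoma without estrogen or progesterone receptors and with a mesenchymal-like shape, grown in medium with serum. They were picked by gene symbol, EHF first, from a table of 19583 rows, and all 10 were found: EHF and ELF3, CLDN1, CLDN7 and OCLN, CDH1 and EPCAM, and KRT8, KRT18 and KRT19. The choice was made with the differences between the hairpin labels in view, so those differences are given below as a description without p-values. The groups, of 2 libraries each, were cells labelled as carrying a short hairpin against CHD4 (shCHD4) kept for 24 hours at 1% O2, the same cells at 20% O2, cells with a scrambled control hairpin (shSC) at 1% O2, and shSC cells at 20% O2. CHD4 is the nucleosome-remodelling ATPase of the NuRD complex, and the series asks how it bears on the hypoxia-inducible factors, which accumulate and switch on genes when oxygen is low. The sources used here do not give the hairpin sequence or vector, nor whether a label stands for 1 clone or a pool.

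Epithelial cells hold together through adherens and tight junctions and carry a cytoskeleton of paired keratins. ETS transcription factors of the EHF and ELF3 subfamily are made mainly in epithelia and raise genes of that programme, while ZEB and SNAIL factors bind E-box sequences and repress CDH1 and junction genes. In the epithelial-mesenchymal transition the programme is lost to a varying extent, and MDA-MB-231 is known for having little E-cadherin while it still makes keratins.

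The libraries held 24947627 to 31903585 gene-assigned reads. Values are normalised read counts, which were scaled by 1 factor per library and take no account of gene length. That scaling was not for library size alone. It held a further part, from 0.929 in shSC 1% O2 replicate 1 to 1.025 in shCHD4 20% O2 replicate 2. The TMM factors computed with edgeR were close to it, at 0.946 and 1.045 for the same libraries. CHD4 itself averaged 293.0 and 299.0 normalised read counts in the libraries labelled shCHD4 at 1% and 20% O2, and 278.9 and 298.6 in shSC, so the targeted RNA was not lower under its label. Each difference between labels is therefore one between libraries with these labels. The first principal component of the tested genes held 88.8% of the variance. As markers of the line, VIM ranged from 3471 to 6856 over the 8 libraries, and the hormone receptor genes ESR1 and PGR stayed at or below 0.138 and 0.111. Of the markers of other cells, 5 of 7 were in the table. PTPRC of leukocytes and CDH5 and VWF of endothelium reached at most 0.636, 0.166 and 0.207, while PECAM1 ranged from 1.91 to 2.93 and CD68, which is not restricted to leukocytes, from 108.2 to 122.2. Whether both libraries of a group were grown as separate cultures is not stated, so each p-value reflects library-to-library spread only, which may be technical.

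The bases before the transcription start are shown for EHF and CLDN7, because these are the genes with a promoter in the sequence table that were higher at 1% O2 under both labels. The sequences are from RefSeq (GRCh38.p14), 250 bases ending just before each annotated start, and capitals mark matches on either strand to 3 motifs: the ETS core GGAAG, the E-box CACCTG bound by ZEB and SNAIL factors, and the hypoxia response core as ACGTG. The GCGTG form of the hypoxia core was not searched, so its counts and shares cover ACGTG alone. The window of the first EHF start is chr11:34624007-34624256 and that of the second chr11:34632316-34632565, both on the plus strand. The window of the first CLDN7 start listed is chr17:7263214-7263463 and that of the second chr17:7262479-7262728, both on the minus strand.
EHF first start: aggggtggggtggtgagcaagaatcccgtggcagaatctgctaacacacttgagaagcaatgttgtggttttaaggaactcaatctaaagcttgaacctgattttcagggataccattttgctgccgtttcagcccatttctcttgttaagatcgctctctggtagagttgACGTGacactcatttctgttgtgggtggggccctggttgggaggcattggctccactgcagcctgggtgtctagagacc
EHF second start: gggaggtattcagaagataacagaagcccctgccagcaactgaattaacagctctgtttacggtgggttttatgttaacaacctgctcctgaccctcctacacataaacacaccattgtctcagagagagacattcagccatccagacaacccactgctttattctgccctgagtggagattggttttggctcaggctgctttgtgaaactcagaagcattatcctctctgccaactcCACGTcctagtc
CLDN7 first start: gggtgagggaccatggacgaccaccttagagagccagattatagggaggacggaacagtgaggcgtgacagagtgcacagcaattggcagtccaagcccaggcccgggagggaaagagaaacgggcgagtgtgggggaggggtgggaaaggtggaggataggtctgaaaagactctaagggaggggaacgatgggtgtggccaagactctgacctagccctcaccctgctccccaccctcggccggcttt
CLDN7 second start: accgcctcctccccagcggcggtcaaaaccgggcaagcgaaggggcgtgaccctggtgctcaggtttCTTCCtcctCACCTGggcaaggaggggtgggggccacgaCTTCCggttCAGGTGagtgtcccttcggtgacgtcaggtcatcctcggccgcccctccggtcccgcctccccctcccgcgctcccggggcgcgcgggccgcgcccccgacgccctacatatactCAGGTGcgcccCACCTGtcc
The EHF windows held 1 hypoxia response core each, beginning 79 bases before the first start and 12 before the second, and no ETS core or E-box. The CLDN7 windows differed from each other: the second held 2 ETS cores and 4 E-boxes, of which the nearest began 9 and 20 bases before the start, and the first held no match to the 3 motifs as searched. Both CLDN7 windows hold the letters gcgtg, which are not marked. Entries were found for 6 members (EHF, ELF3, CLDN1, CLDN7, KRT8 and OCLN), 9 windows in all. Of these windows 3 held the hypoxia core, 4 the ETS core and 4 the E-box, against 18.5%, 65.1% and 17.5% of all 35116 windows of the same length. EHF, CLDN7 and OCLN had 2 windows each, and those of OCLN overlap, so the windows are not independent and no excess is read from them. The 3 with the hypoxia core were those of EHF and 1 of OCLN. Matches of different motifs shared a base only in an OCLN window, between an ETS core and a hypoxia core. A match is a stretch of letters, not a measured binding site.

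EHF stood furthest apart between the labels. Its normalised read count was 15.5 and 15.3 in shCHD4 libraries at 1% O2 and 8.05 and 9.00 in shCHD4 libraries at 20% O2, against 521.9 and 471.7 in shSC libraries at 1% O2 and 378.2 and 387.6 in shSC libraries at 20% O2. All 4 shCHD4 libraries were low and all 4 shSC libraries high, with no overlap. The ratio of group means was 32.3-fold lower in shCHD4 at 1% O2 and 44.9-fold lower at 20% O2, which placed EHF as the 19th and 15th lowest of 12645 tested genes. In bulk RNA, fewer cells with the transcript and less of it per cell cannot be told apart.

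Within each label, EHF was higher at 1% than at 20% O2. Under shCHD4 it was 1.80-fold higher as a ratio of means (log2 difference 0.82 ± 0.06 SE on the log2(value + 0.5) scale, limma adjusted p = 1.19e-08), and under shSC 1.297-fold (0.37 ± 0.06, adjusted p = 0.000106). Under both labels the 1% O2 libraries lay above the 20% O2 libraries. The change under shCHD4 exceeded that under shSC by 0.44 ± 0.08 (adjusted p = 0.00524), although the level reached under shCHD4 stayed far below that of either shSC group. That difference did not pass with no filter on low values (adjusted p = 0.0678) or without a variance trend (adjusted p = 0.092), where fewer genes passed in all.

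ELF3, the closest relative of EHF among the members, was barely read. It had 1 and 3 reads in shCHD4 libraries at 1% O2 and 9 and 5 at 20% O2, against 15 and 16 in shSC libraries at 1% O2 and 26 and 32 at 20% O2. Every shCHD4 library was below every shSC library, as for EHF, but with O2 the order was the opposite of EHF: the 1% O2 libraries had fewer reads than the 20% O2 libraries under each label. With a mean under 1, ELF3 was outside the test. When all 19096 rows with a read were tested, ELF3 passed as lower at 1% O2 under shSC (log2 difference -0.65, limma adjusted p = 0.00737) and not under shCHD4 (-0.40, adjusted p = 0.0788).

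**Figure D1:**
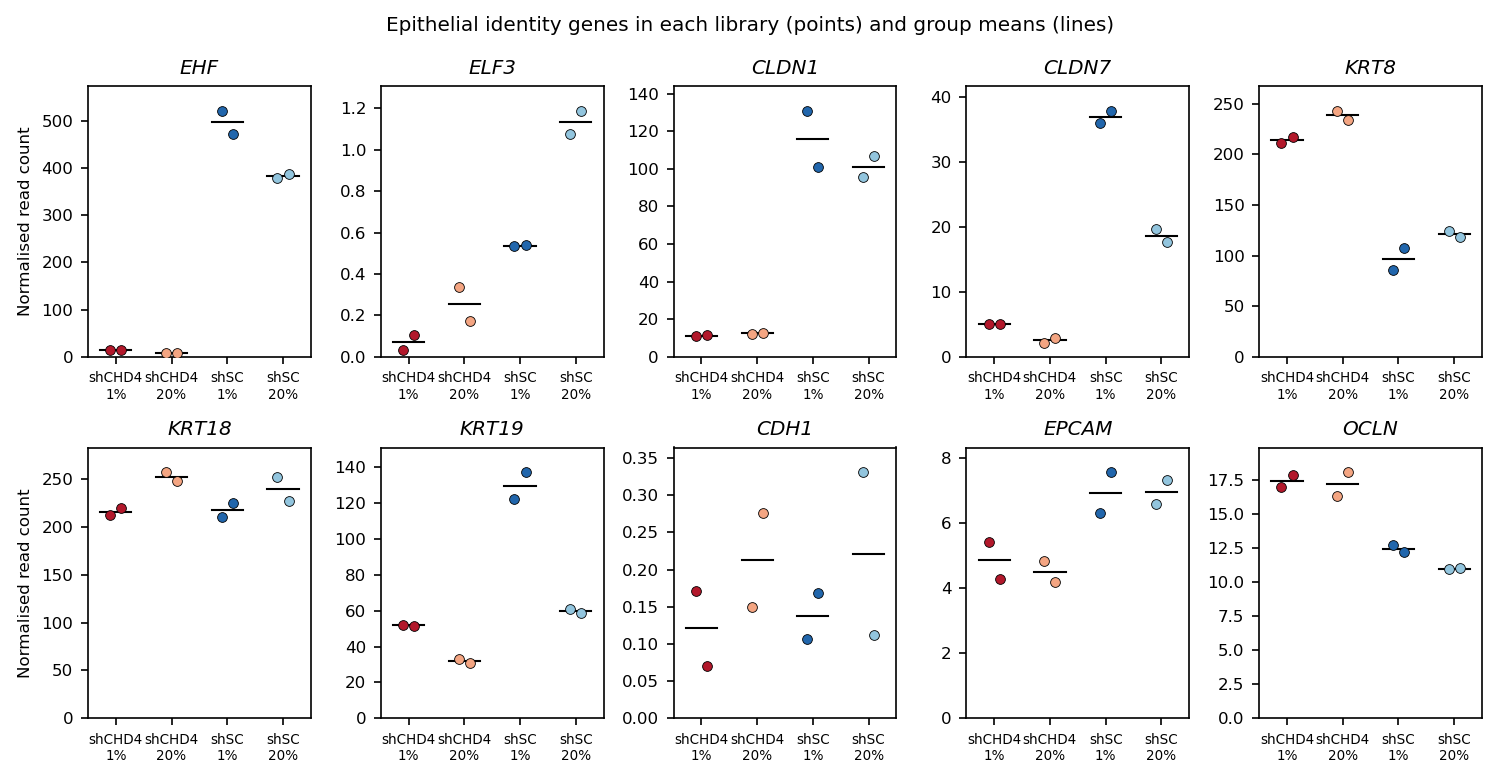
Normalised read count (vertical axis, linear from 0, a separate scale for each gene) of the 10 genes in shCHD4 libraries at 1% and 20% O2 and shSC libraries at 1% and 20% O2; points are libraries and lines group means. EHF, CLDN1 and CLDN7 are low in all 4 shCHD4 libraries, KRT8 and OCLN are high in them, and CDH1 stays below 0.34 throughout.

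The claudins, which seal tight junctions, were also low under shCHD4. With 1% O2, CLDN7 passed as higher under both labels and CLDN1 under neither. Their O2 changes were not tested against each other. CLDN7 had 4.98 and 5.13 normalised read counts in shCHD4 at 1% O2 and 2.1705 and 2.93 at 20% O2, against 36.0 and 37.9 in shSC at 1% O2 and 19.7 and 17.6 at 20% O2. The 4 groups did not overlap. The ratio of means was 7.31-fold lower in shCHD4 than in shSC at 1% O2 and 7.32-fold lower at 20% O2. At 1% against 20% O2, CLDN7 rose 1.98-fold under shCHD4 (log2 difference 0.88 ± 0.11, limma adjusted p = 1.46e-05) and 1.98-fold under shSC (0.97 ± 0.11, adjusted p = 2.31e-06). The difference between these changes was -0.09, with a 95% interval of -0.42 to 0.23 (adjusted p = 0.806).

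CLDN1 had 10.9 and 11.6 normalised read counts in shCHD4 at 1% O2 and 12.3 and 12.8 at 20% O2, against 130.9 and 101.2 in shSC at 1% O2 and 95.5 and 106.8 at 20% O2. It was 10.3-fold lower in shCHD4 at 1% O2 and 8.05-fold lower at 20% O2. Its O2 change did not pass under shCHD4 (log2 difference -0.16, 95% interval -0.35 to 0.03, limma adjusted p = 0.219) or under shSC (0.19, 95% interval -0.002 to 0.38, adjusted p = 0.116). The shSC 1% O2 libraries decided the second value: without shSC 1% O2 replicate 2 it was 0.37 and passed (adjusted p = 0.00382), and without shSC 1% O2 replicate 1 it was 0.0026.

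OCLN, which encodes the tight-junction protein occludin, went the other way between labels. It had 17.0 and 17.9 normalised read counts in shCHD4 at 1% O2 and 16.4 and 18.1 at 20% O2, against 12.7 and 12.2 in shSC at 1% O2 and 10.97 and 11.03 at 20% O2. Every shCHD4 library lay above every shSC library, 1.40-fold in the means at 1% O2 and 1.57-fold at 20% O2. No O2 change passed (log2 difference 0.02, limma adjusted p = 0.903 under shCHD4, and 0.17, adjusted p = 0.109 under shSC).

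Of the surface adhesion genes, CDH1, the gene of E-cadherin, was close to undetected in every group. It had 5 and 2 reads in shCHD4 libraries at 1% O2 and 4 and 8 at 20% O2, against 3 and 5 in shSC libraries at 1% O2 and 8 and 3 at 20% O2, and the groups overlapped. No difference was detectable at this depth. EPCAM, an epithelial adhesion molecule, had 5.43 and 4.28 normalised read counts in shCHD4 at 1% O2 and 4.83 and 4.17 at 20% O2, against 6.29 and 7.56 in shSC at 1% O2 and 6.58 and 7.32 at 20% O2. The shCHD4 libraries lay below the shSC libraries, with means 1.43-fold lower at 1% O2 and 1.54-fold lower at 20% O2. With O2 the EPCAM groups overlapped under each label (log2 difference 0.09, 95% interval -0.18 to 0.36, under shCHD4 and -0.0077, interval -0.28 to 0.26, under shSC; limma adjusted p = 0.638 and 0.972).

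The simple-epithelium keratins split 3 ways. KRT19, a small type I keratin, had 52.1 and 51.6 normalised read counts in shCHD4 at 1% O2 and 32.9 and 30.8 at 20% O2, against 122.0 and 137.2 in shSC at 1% O2 and 61.2 and 58.9 at 20% O2. Each group stood apart from the other 3. Its mean was 2.50-fold lower in shCHD4 than in shSC at 1% O2 and 1.89-fold lower at 20% O2. KRT19 rose with 1% O2 under shCHD4 (1.63-fold, log2 difference 0.69 ± 0.06, limma adjusted p = 1.19e-07) and under shSC (2.16-fold, 1.102 ± 0.06, adjusted p = 1.13e-10). The change under shCHD4 was smaller than that under shSC, with a difference of -0.41 ± 0.08 on the log2 scale (adjusted p = 0.00947). As for EHF, that difference did not pass with no filter (adjusted p = 0.0772) or without a variance trend (adjusted p = 0.102).

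KRT8 and its partner KRT18 form the first keratin filaments of an epithelium, as a type II and type I pair. KRT8 had 211.5 and 216.8 normalised read counts in shCHD4 at 1% O2 and 243.1 and 234.1 at 20% O2, against 85.9 and 107.6 in shSC at 1% O2 and 124.5 and 118.4 at 20% O2. Every shCHD4 library exceeded every shSC library, 2.21-fold in the means at 1% O2 and 1.96-fold at 20% O2. KRT18 had 212.2 and 219.5 in shCHD4 at 1% O2 and 257.3 and 247.8 at 20% O2, against 210.8 and 225.1 in shSC at 1% O2 and 251.7 and 226.6 at 20% O2. The labels overlapped for KRT18 at each O2 level, and its log2 difference between labels at 1% O2 took either sign, -0.014 as scaled by the authors, 0.094 with quantile normalization and 0.10 with scaling to library totals.

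With 1% O2, KRT18 fell under shCHD4 (log2 difference -0.23 ± 0.05, limma adjusted p = 0.00431) and had -0.13 under shSC (adjusted p = 0.0534). KRT8 fell under shSC (-0.34 ± 0.07, adjusted p = 0.00123) and had -0.16 under shCHD4 (adjusted p = 0.118). The difference between labels in these changes did not pass for KRT18 (-0.09, adjusted p = 0.544) or KRT8 (0.18, adjusted p = 0.357). The KRT18 call under shCHD4 ended without a variance trend (adjusted p = 0.0629). KRT8 under shCHD4 passed as lower when either shSC 1% O2 library was left out (adjusted p = 0.0201 without replicate 1, 0.0206 without replicate 2). The KRT8 value under shSC was -0.17 without shSC 1% O2 replicate 1 (adjusted p = 0.0306), and the KRT18 call under shCHD4 also ended when either shCHD4 replicate 1 was left out (adjusted p = 0.0639 for the 1% O2 library, 0.0574 for the 20% O2 library). Both keratins have many pseudogenes (52 named for KRT8 and 68 for KRT18 in RefSeq), and the sources used here do not say how reads shared with them were counted, so their levels are uncertain to that extent.

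The ratio of KRT8 to KRT18 within a library put the pair on 1 scale. It was 0.997 and 0.987 in shCHD4 at 1% O2 and 0.945 and 0.945 at 20% O2, against 0.407 and 0.478 in shSC at 1% O2 and 0.495 and 0.522 at 20% O2. KRT8 was thus close to KRT18 in read count in shCHD4 libraries and well under it in shSC libraries. The ratio of KRT19 to KRT18 was 0.245 and 0.235 in shCHD4 at 1% O2 and 0.128 and 0.124 at 20% O2, against 0.579 and 0.609 in shSC at 1% O2 and 0.243 and 0.260 at 20% O2. The shCHD4 libraries at 1% O2 and the shSC libraries at 20% O2 thus had nearly the same KRT19 to KRT18 ratio. These ratios are of read counts, not corrected for transcript length.

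**Figure D2:**
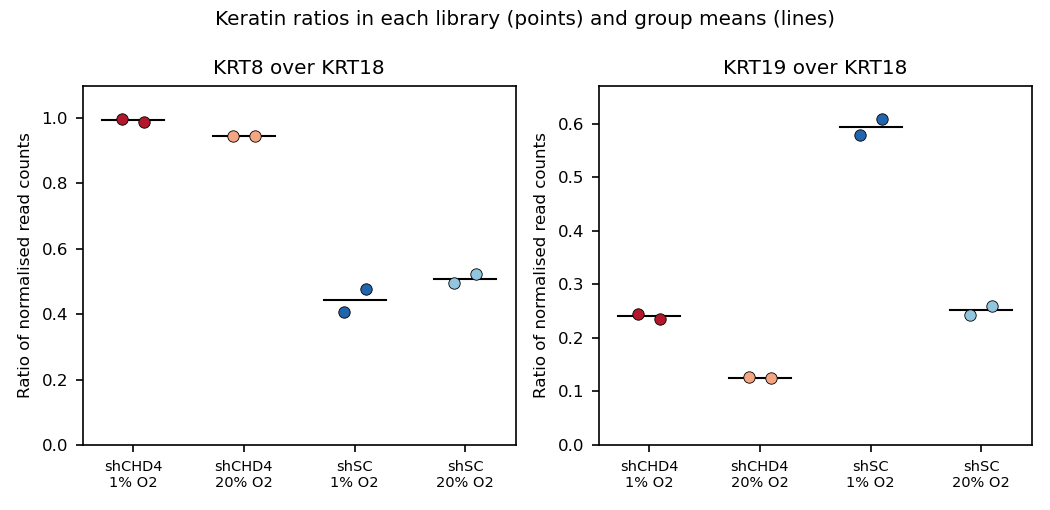
Ratio of normalised read counts of KRT8 to KRT18 (left) and KRT19 to KRT18 (right), vertical axes linear from 0, in shCHD4 libraries at 1% and 20% O2 and shSC libraries at 1% and 20% O2; points are libraries and lines group means. The KRT8 ratio lies above 0.94 in shCHD4 and below 0.53 in shSC, and the KRT19 ratio is higher at 1% than at 20% O2 under both labels.

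Of the 10 members, 8 passed the filter on low values. Under shCHD4, 3 of the 8 rose with 1% O2 (EHF, CLDN7 and KRT19) and 1 fell (KRT18), where 23% of all tested genes were called, 12.3% higher and 10.7% lower. Under shSC the same 3 rose and 1 fell (KRT8), where 35.2% of all tested genes were called, 17.4% higher and 17.9% lower. Scaling to library totals changed that genome-wide split, to 32.7% of called genes higher under shSC in place of 49.3%, and to 42.5% under shCHD4 in place of 53.5%, while the same 3 members rose. In the interaction 1 member passed in each direction (EHF and KRT19), where 4.36% of tested genes passed, 2.21% higher and 2.14% lower. Between labels 5 members were called lower in shCHD4 and 2 higher at each O2 level, against 39.2% lower and 38.2% higher of all genes at 1% O2 and 38.6% and 37% at 20% O2; most tested genes were called, and the members were chosen on this contrast, so nothing is read from these counts.

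**Figure D3:**
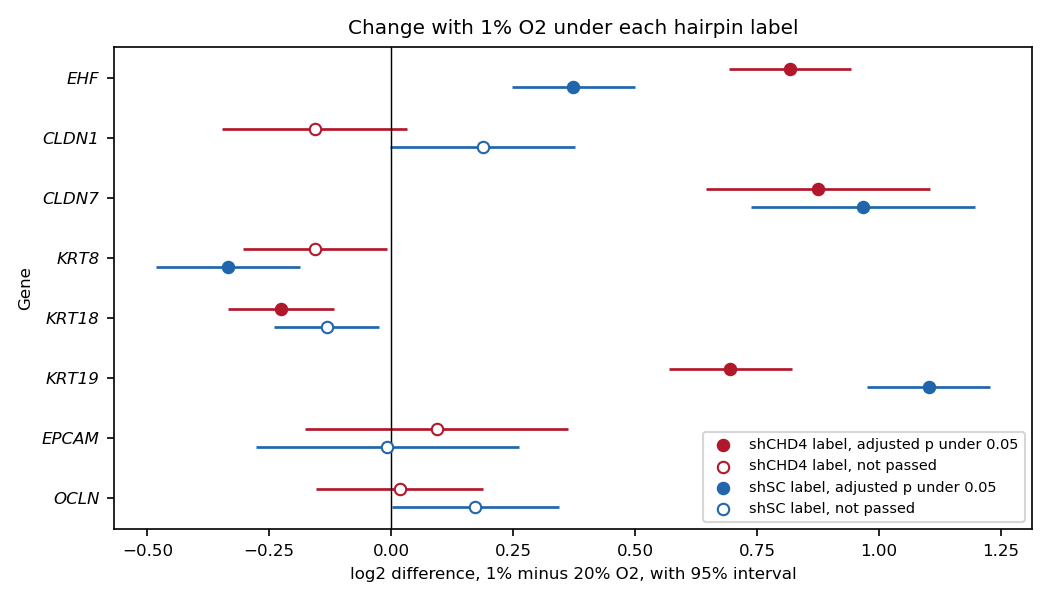
log2 difference between 1% and 20% O2 (horizontal axis) for the 8 tested genes under the shCHD4 label (red, upper) and the shSC label (blue, lower), with 95% intervals; filled points passed limma at an adjusted p under 0.05. EHF, CLDN7 and KRT19 lie to the right of 0 under both labels, with EHF further right under shCHD4 and KRT19 further right under shSC.

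Levels per length reordered the members between the labels. Per kilobase of the longest coding transcript in GENCODE v29, EHF in shSC was at 157.7 ± 11.3 normalised read counts at 1% O2 (SD, n = 2), above KRT18 (128.5 ± 5.96), KRT19 (93.3 ± 7.71), KRT8 (39.7 ± 6.29) and CLDN1 (33.3 ± 6.05), followed by CLDN7, EPCAM and OCLN. The levels of KRT8 and CLDN1 differed by less than the sum of their SDs. In shSC at 20% O2 the order per kilobase was KRT18 (141.0 ± 10.5), EHF (121.6 ± 2.11), KRT8 (49.8), KRT19 (43.2), CLDN1 (29.1), CLDN7 (9.71), EPCAM (4.03) and OCLN (1.71), each gap being wider than the SDs. In shCHD4 the 3 keratins led at both O2 levels, KRT18 at 127.3 and 148.9, KRT8 at 87.9 and 97.9 and KRT19 at 37.3 and 22.9 per kilobase at 1% and 20% O2. EHF was then next at 1% O2, at 4.88, and at 20% O2, below CLDN1 (3.61), its 2.71 could not be told apart from OCLN (2.67) or EPCAM (2.61). ELF3 and CDH1 were the lowest in every group, at or below 0.227 per kilobase. The SDs hold replicate spread alone. They cover no error from the choice of transcript or from reads shared with pseudogenes, so the order holds for these lengths only.

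The members lie on 8 chromosomes. KRT8 and KRT18 are neighbours on chromosome 12 among the tested genes, and CLDN7 and KRT19 share chromosome 17 without being neighbours. For each member the 40 nearest tested genes were set beside it, by RefSeq gene order. Around EHF on chromosome 11 their median log2 difference between labels was -0.33 at 1% O2 and -0.35 at 20% O2, with a lowest value of -2.58 and -2.68, against -4.97 and -5.41 for EHF. Its nearest tested neighbours CAT and APIP were at 0.50 and 0.16 at 1% O2 and at 0.23 and 0.05 at 20% O2. CLDN1 on chromosome 3 (-3.30 and -2.96) and CLDN7 (-2.75 and -2.66) also lay below all 40 neighbours. The members were chosen with the label differences in view. At 1% and 20% O2 CLDN1 was the 86th and 118th lowest of 12645 tested genes, and CLDN7 the 145th and 156th. A place below the neighbours thus follows largely from the choice and is a description only. Around CLDN1 the neighbour median was -0.45 and -0.46, and of the adjacent genes LEPREL1 had 0.03 and 0.11 at 1% and 20% O2 while IL1RAP, a receptor subunit for interleukin 1, had -2.12 at each O2 level.

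The other 5 tested members lay inside the range of their neighbours. OCLN on chromosome 5, higher in shCHD4 by 0.47 at 1% O2 and 0.62 at 20% O2, had MARVELD2, another tight-junction protein gene, next to it at -1.16 and -1.40. On the chromosome 12 keratin cluster, the order among tested genes was KRT81, KRT8, KRT18, and the log2 differences between labels were 1.92, 1.15 and -0.014 at 1% O2 and 1.35, 0.97 and 0.08 at 20% O2. KRT19 on chromosome 17 (-1.31 and -0.91) sat between KRT15 (-0.21 and -0.24) and KRT17 (-0.96 and -1.43). Gene order is that of another build than the table's.

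**Figure D4:**
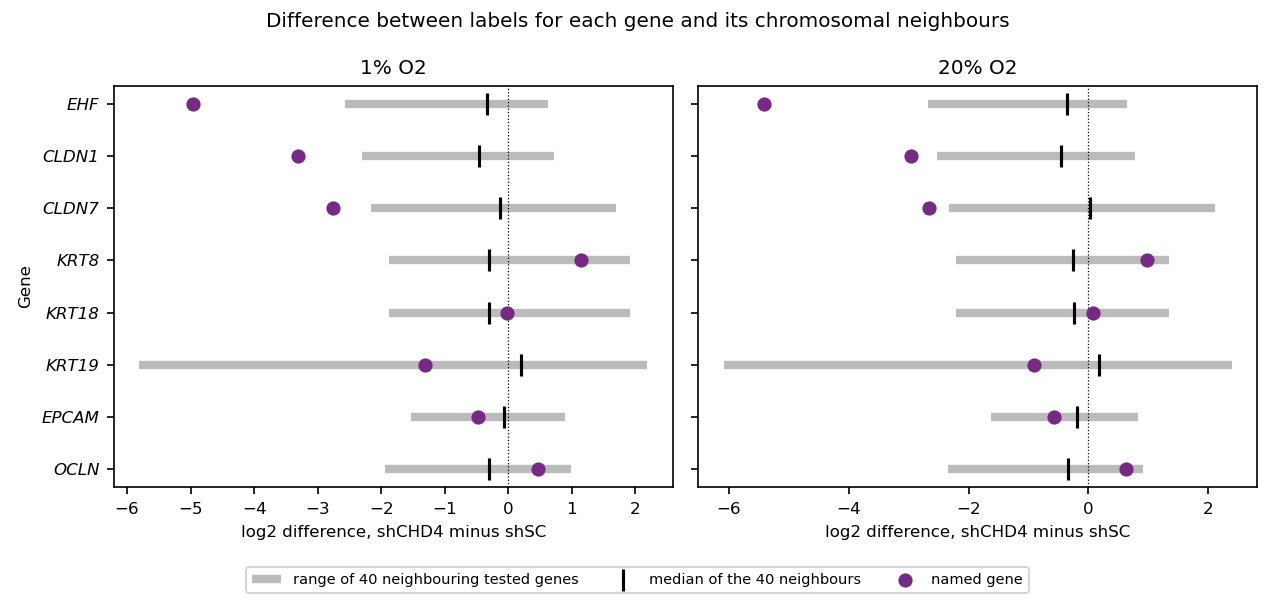
log2 difference between shCHD4 and shSC (horizontal axis) at 1% O2 (left) and 20% O2 (right) for the 8 tested genes (purple points), with the range (grey bar) and median (black tick) of the 40 nearest tested genes on the chromosome. EHF, CLDN1 and CLDN7 lie left of the whole neighbour range, and KRT8 and OCLN lie right of the neighbour median. The genes were chosen with this difference in view, so their places are a description only.

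The genes whose 4 group means were nearest to EHF in shape were CA12, PTGS2, HAS2, TNFSF15 and ADM2. The measure was the Euclidean distance of log2(value + 0.5) group means, each gene centred on its own mean, and it ran from 0.323 for CA12 to 0.577 for ADM2. PTGS2, the inducible cyclooxygenase, averaged 18.0 and 11.7 in shCHD4 at 1% and 20% O2, against 734.6 and 600.4 in shSC. For KRT18, the member with the highest mean, the nearest were LRRC33, WDR77, RPF2, EIF5B and ERAP2, at 0.0222 to 0.0295. With 4 groups and a large difference between labels, such likeness rests on few points.

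The ETS relatives outside the members differed less between labels than EHF in every case. EHF was picked with that difference in view, so this order follows from the choice and nothing is read from it. SPDEF, a factor of secretory epithelia, averaged 8.86 and 10.2 normalised read counts in shCHD4 at 1% and 20% O2, against 23.2 and 24.9 in shSC. ELF4 averaged 45.1 and 50.8 in shCHD4, against 81.7 and 77.4 in shSC, and ELF1 and ELF2 kept within 72.9 to 82.3 and 30.2 to 40.5. With 1% O2, of these 4 genes 1 fell under shCHD4 (ELF4, log2 difference -0.17, limma adjusted p = 0.0429), where 10.7% of all tested genes were called lower. Under shSC the median log2 difference of the 4 was -0.013, beside -0.011 over all tested genes.

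Of 15 other regulators of epithelial cells 8 were tested. KLF4, a differentiation factor of barrier epithelia, averaged 62.2 and 44.6 in shCHD4 at 1% and 20% O2, against 340.0 and 320.1 in shSC. TP63, the basal epithelial factor, averaged 0.260 and 0.252 in shCHD4, against 2.59 and 3.86 in shSC, and ESRP2, an epithelial splicing regulator, averaged 1.88 and 1.37 in shCHD4, against 3.97 and 2.98 in shSC. RBM47, another splicing regulator, was higher in shCHD4, at 5.72 and 6.24, against 2.91 and 4.99 in shSC, as was TFAP2A, an AP-2 factor, at 16.6 and 16.9 in shCHD4, against 10.9 and 12.1 in shSC. Of the 8 genes, 3 were called higher and 5 lower in shCHD4 at 1% O2, and 2 and 5 at 20% O2. Among all tested genes, 38.2% were called higher and 39.2% lower at 1% O2, and 37% and 38.6% at 20% O2. TP63 passed the filter on low values through its shSC libraries alone. With 1% O2, KLF4 (log2 difference 0.48, limma adjusted p = 4.47e-07) and KLF5 (0.27, adjusted p = 0.00639) rose and GATA3, a luminal factor, fell (-0.25, adjusted p = 0.0407) under shCHD4. Under shSC, RBM47 (-0.69), TP63 (-0.50) and GATA3 (-0.40) fell. Of all tested genes, 12.3% were called higher and 10.7% lower under shCHD4, and 17.4% and 17.9% under shSC. In the interaction 1 of the 8 passed, KLF4 as higher (0.39, limma adjusted p = 0.00149), the direction of EHF. The share over all tested genes was 4.36%.

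Under shSC, 13 of 20 tested junction genes outside the members rose with 1% O2 and 3 fell, where 17.4% of all tested genes were called higher and 17.9% lower, with a median log2 difference of 0.23 beside -0.011 over all tested genes. CLDN4, a barrier claudin, averaged 9.34 at 1% O2 against 4.85 at 20% O2 (0.88, limma adjusted p = 4.98e-05), PKP3, a desmosomal plakophilin, 35.6 at 1% against 20.4 at 20% O2 (0.79, adjusted p = 1.55e-07), CDH3, P-cadherin, 2.95 at 1% against 1.56 at 20% O2, and F11R, a tight-junction adhesion molecule, 23.7 at 1% against 16.9 at 20% O2. Under shCHD4 5 rose and 1 fell of the 20, where 12.3% of all tested genes were called higher and 10.7% lower, with a median of 0.055 beside -0.0037 over all genes. PKP3 (0.63), the desmosomal plaque genes DSP (0.31) and JUP (0.29) rose and CGN, cingulin, fell (-0.52). The interaction passed for 4 of the 20, against 4.36% of all tested genes, JUP higher (0.61) and LSR (-0.49), PVRL1 (-0.41) and PERP (-0.25) lower.

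Between labels, junction genes differed in either direction. DSP, the plaque protein of desmosomes, averaged 287.7 and 231.1 in shCHD4 at 1% and 20% O2, against 115.1 and 86.2 in shSC. JUP averaged 11.2 and 9.04 in shCHD4, against 19.2 and 24.1 in shSC, CLDN4 1.97 and 1.42 in shCHD4, against 9.34 and 4.85 in shSC, and CDH3 0.348 and 0.361 in shCHD4, against 2.95 and 1.56 in shSC. PVRL1 averaged 9.96 and 9.80 in shCHD4, against 29.2 and 21.5 in shSC. DSC2 averaged 2.97 and 2.72 in shCHD4, against 8.96 and 7.73 in shSC, and MARVELD2 0.804 and 0.772 in shCHD4, against 2.39 and 2.87 in shSC. In this list 5 were called higher and 12 lower in shCHD4 at 1% O2, and 6 and 10 at 20% O2, where 77.4% and 75.6% of all tested genes were called. CDH3 and MARVELD2 passed the filter on low values through their shSC libraries alone, so these counts depend in part on the filter.

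MUC1, an epithelial mucin, rose with 1% O2 under shCHD4 (1.65 at 1% against 0.627 normalised read counts at 20% O2, log2 difference 0.93, limma adjusted p = 0.000145) and under shSC (4.72 at 1% against 2.49 at 20% O2, 0.80, adjusted p = 0.000294). KRT17 (0.68) and KRT15 (0.53) rose and AP1M2, an adaptor subunit of polarised epithelia, fell (-0.34) under shCHD4. Under shSC KRT15 rose (0.51), and KRT81, a hair keratin, and MAL2 fell (-0.78 and -0.46). In all 4 rose and 2 fell of 16 tested keratin and surface genes under shCHD4, where 12.3% of all tested genes were called higher and 10.7% lower, and 4 rose and 6 fell under shSC, where 17.4% were called higher and 17.9% lower. Between labels, 6 of the 16 were called higher in shCHD4 and 7 lower at 1% O2, and 5 and 7 at 20% O2. Among all tested genes, 38.2% were called higher and 39.2% lower at 1% O2, and 37% and 38.6% at 20% O2. In the interaction, KRT81 (0.57, limma adjusted p = 0.000294) and KRT7 (0.33, adjusted p = 0.0221) passed as higher, of the 16. The share over all tested genes was 4.36%. SPINT1 and LCN2 passed the filter on low values through shSC alone, and CDS1 through shCHD4 alone. KRT81 averaged 96.3 and 111.7 in shCHD4 at 1% and 20% O2, against 25.03 and 43.4 in shSC, and SPINT2, a serine protease inhibitor, 368.2 and 307.3 in shCHD4, against 199.5 and 164.8 in shSC. AP1M2 averaged 26.8 and 34.04 in shCHD4, against 16.4 and 21.7 in shSC. KRT7, a simple-epithelium keratin, averaged 43.0 and 39.2 in shCHD4 at 1% and 20% O2, against 159.4 and 182.8 in shSC. LCN2, a secreted iron-carrier protein, had 0 reads in all 4 shCHD4 libraries, which allows up to 0.0523 and 0.0538 over the 2 libraries at 1% and 20% O2, against means of 5.12 and 3.94 in shSC. That limit covers counting error alone.

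VIM, the mesenchymal intermediate filament, averaged 6819 and 5509 in shCHD4 at 1% and 20% O2, against 5598 and 3497 in shSC, while FN1, fibronectin, averaged 479.5 and 379.9 in shCHD4, against 1468 and 1260 in shSC. CDH11 averaged 31.0 and 27.9 in shCHD4, against 112.3 and 135.2 in shSC, and SPARC 6.32 and 6.33 in shCHD4, against 0.538 and 0.446 in shSC. Of the repressors of epithelial genes, ZEB1 averaged 122.7 and 117.8 in shCHD4, against 160.3 and 149.8 in shSC, ZEB2 22.8 and 19.9 in shCHD4, against 39.6 and 38.7 in shSC, and SNAI2 34.8 and 32.2 in shCHD4, against 50.6 and 54.0 in shSC. TCF3, also an E-box factor, went the other way, at 77.9 and 77.6 in shCHD4, against 62.6 and 60.0 in shSC. Of the 9 tested mesenchymal genes and repressors, 3 were called higher and 5 lower in shCHD4 at each O2 level. Among all tested genes, 38.2% were called higher and 39.2% lower at 1% O2, and 37% and 38.6% at 20% O2. SPARC passed the filter on low values through its shCHD4 libraries alone. With 1% O2, FN1 (log2 difference 0.34), VIM (0.31) and ZEB2 (0.19) rose under shCHD4, of 9 tested genes. Under shSC, VIM (0.68) and FN1 (0.22) rose and CDH11 fell (-0.27). Among all tested genes, 12.3% were called higher and 10.7% lower under shCHD4, and 17.4% and 17.9% under shSC. VIM thus rose with 1% O2 under both labels, as did EHF, CLDN7 and KRT19. Its rise was smaller under shCHD4 (interaction -0.37, limma adjusted p = 0.00309). CDH11 passed the interaction in the other direction (0.42, adjusted p = 0.0055), where 4.36% of all tested genes passed.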

How the data were processed

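Polyadenylated RNA was sequenced from 8 libraries in 4 groups. Per the submitters' processing notes the tools were bcl2fastq 2.17, FastQC 0.11.2, TopHat, Picard 1.127, featureCounts and edgeR, with build hg19; the sources used here give no annotation or strand setting. The deposited values are a signal proportional to reads: although named FPKM, 100% of them were whole multiples of 1 step per library within 0.01 reads, so the authors' values are counts over a single library factor, uncorrected for gene length. They are called normalised read counts, and whole reads were recovered by division.

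Genes with a mean of at least 1 (12645 rows) were log2-transformed after adding 0.5 and tested two-sided by limma 3.58.1 (R 4.3.3). That mean was over all 8 libraries, so a gene low under 1 label could pass through the other label alone. A single model held the 4 group means, its variance prior followed the mean (residual df 4, prior df 13.9), and p-values were adjusted by Benjamini-Hochberg, with calls at 0.05. Fold changes on that scale understate the change of low genes. edgeR 4.0.16 and DESeq2 1.42.0 on the recovered reads were alternatives. With 2 libraries a group, exact permutation cannot reach 0.05 and was not used. RefSeq gave a chromosome for 98% of tested genes. The scripts were tested on simulated data. Members and lists were chosen with earlier results of these data known. List genes named are from the up to 4 with the largest absolute difference in a comparison among those past the threshold. ELF1, ELF2, ZEB1, SNAI2, TCF3, SPINT2, AP1M2 between labels, the genes named for the filter, and the neighbours and partners of members were named after their values were seen.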

Additional observations from a re-analysis of the deposited data

Results flagged for a closer look

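The change of EHF with 1% O2 differed between the labels, larger under shCHD4 than under shSC by 0.44 on the log2 scale (limma adjusted p = 0.00524, higher at 1% O2 in both libraries under each label). The change of KRT19 differed the other way, by -0.41 (adjusted p = 0.00947), and KRT19 too was higher in both 1% O2 libraries under each label. The EHF value under shCHD4 at 20% O2 rests on 476 reads and that of KRT19 on 1771.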

How the results depend on the processing

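Each comparison was refitted under 18 alternatives: pseudocounts of 0.1 and 1, no filter, quantile normalization, TMM, edgeR, DESeq2, no variance trend, a replicate block, scaling to library totals and each library left out; a crossed block, scaling to totals and ratios without a pseudocount were chosen after seeing the data. EHF, CLDN7 and KRT19 passed as higher at 1% O2 under both labels in every refit, with adjusted p of at most 0.00907. In the O2 comparisons and the interaction 9 refitted member values gained a call and 7 lost one, and between labels, where calls were not weighed, 13 moved by more than 1 SD. Between labels at 20% O2 KRT18 passed as higher in shCHD4 with quantile normalization (0.17), scaling to totals (0.16) and without shSC 20% O2 replicate 1 (0.16), and at 1% O2 EPCAM did not pass without shCHD4 1% O2 replicate 2 (-0.32). KRT18 under shSC passed as lower with quantile normalization (-0.17, adjusted p = 0.0188) and scaling to totals (-0.19, adjusted p = 0.00836). It also passed when shSC 1% O2 replicate 2 was left out (-0.18, adjusted p = 0.0368), or shSC 20% O2 replicate 2 (-0.21, adjusted p = 0.00531); it was -0.085 without shSC 1% O2 replicate 1 and -0.057 without shSC 20% O2 replicate 1. Without shSC 1% O2 replicate 2 the interaction also passed for CLDN1 (-0.53) and KRT8 (0.34), so 4 members passed.

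Genes called numbered 2903 for 1% O2 under shCHD4, 1920 with no filter and 1815 without a variance trend, and 1326 to 3468 with a library left out (1326 and 1451 without shCHD4 1% O2 replicate 1 or 2, 1344 without shCHD4 20% O2 replicate 1). For the interaction they numbered 551, 155 with no filter, 155 without a trend, and 245 to 994 with a library left out (251 and 245 without shCHD4 1% O2 replicate 1 or 2, 322 and 360 without shCHD4 20% O2 replicate 1 or 2, 317 without shSC 1% O2 replicate 1, 994 without shSC 20% O2 replicate 1); members called there numbered 0 with no filter and 0 without a trend, 2 with edgeR and 2 with DESeq2, and 2 to 4 with a library left out. edgeR on the recovered reads called 3006 and 4485 genes for 1% O2 under shCHD4 and shSC, and 565 for the interaction. Scaling to library totals made 67.4% of interaction calls positive, in place of 50.8%, and moved the median of all genes between labels at 1% O2 from -0.0067 to 0.103. Replicate numbers did not pair the samples (correlations of deviations -0.121 to 0.124), and the replicate block gave 2795 and 4370 genes for 1% O2 under shCHD4 and shSC, 536 for the interaction, and the same 4, 4 and 2 members called. With the shCHD4 20% O2 numbers crossed, 2823 genes were called under shCHD4.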
